A study of Mus musculus with 2 samples.

Results

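The sodium pump genes described here are 6 of the 55536 gene rows of the deposited tables, chosen by name: the beta subunits Atp1b1, Atp1b2 and Atp1b3 and the FXYD proteins Fxyd1, Fxyd6 and Fxyd7. All 6 were found by their symbol, each on 1 gene row, and all 6 passed the filter on low values. Poly(A)-selected RNA was sequenced from mouse left cerebral cortex, taken at 6 months of age from C57BL/6 animals (strain B6NCrl); the labels name no treatment and no altered allele. There was a single group, cortex, with 2 libraries labelled biological replicates 1 and 2, each made from 20 ng of RNA by Nextera tagmentation (cDNA is cut by a transposase that also adds the adapters). The libraries had separate sample records under 1 donor entry. One label field called the tissue male and another gave the sex as not collected. The labels do not state outright that the libraries came from separate animals, so every spread below is the difference between these libraries and may be technical.

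The sodium-potassium pump moves sodium out of the cell and potassium in at the cost of ATP, and in the brain it restores the ion gradients that firing neurons run down. A catalytic alpha subunit does the transport. A beta subunit, a glycoprotein that crosses the membrane a single time, brings it to the surface and sets its affinity for potassium, and a small FXYD protein may join them and tune the pump's kinetics. Atp1b1 (beta 1) is the main neuronal beta subunit. Atp1b2 (beta 2) was first described as an adhesion molecule on glia, and Atp1b3 (beta 3) is made in many tissues. Fxyd1 is phospholemman, best known from heart, where its phosphorylation relieves its inhibition of the pump. Fxyd6 is phosphohippolin, and Fxyd7 is found mainly in brain.

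FXYD proteins take their name from a short motif ahead of the membrane-spanning stretch. It is the feature that makes Fxyd1, Fxyd6 and Fxyd7 a family, so its codons are shown in capitals within the spliced coding bases around them (GENCODE M21 transcripts on GRCm38, the assembly also called mm10; 60 bases each, 12 of them in capitals). The Fxyd1 stretch spans chr7:31053449-31054306 on the minus strand, the Fxyd6 stretch chr9:45390639-45390802 on the plus strand and the Fxyd7 stretch chr7:31045002-31051359 on the minus strand, introns included.
Fxyd1-212: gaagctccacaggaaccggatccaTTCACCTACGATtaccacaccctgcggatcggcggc
Fxyd6-203: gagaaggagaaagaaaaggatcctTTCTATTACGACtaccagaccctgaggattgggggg
Fxyd7-201: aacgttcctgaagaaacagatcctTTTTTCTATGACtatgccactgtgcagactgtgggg
The motif began at codon 29 of Fxyd1, codon 28 of Fxyd6 and codon 18 of Fxyd7 and occurred in frame 1 time in each. Coding length was 276 bases in Fxyd1, 279 in Fxyd6 and 240 in Fxyd7, against 912, 870 and 834 bases in Atp1b1, Atp1b2 and Atp1b3. Aligned coding bases were 61.6% to 64.4% identical among the FXYD genes and 60.5% to 64.0% identical among the beta genes.

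The cortex held far more beta 1 RNA than RNA of the other beta subunits. Levels are given in TPM (relative transcript abundance scaled to a fixed sum per library), which the authors computed per length, so that genes can be compared. Atp1b1 (ENSMUSG00000026576.12, chromosome 1, 164437109 to 164458355, minus strand) had 845 TPM in replicate 1 and 1039.5 TPM in replicate 2, a mean of 942 ± 137 (SD, n = 2), which ranked 162 among the 55341 genes with a symbol. Replicate 2 was the higher library. Atp1b2 (ENSMUSG00000041329.13, chromosome 11, 69599736 to 69605942, minus strand) had 214 TPM in replicate 1 and 125 TPM in replicate 2, a mean of 169.5 ± 63.4. Here replicate 1 was the higher library. Atp1b3 (ENSMUSG00000032412.8, chromosome 9, 96332655 to 96364442, minus strand) had 51.2 TPM in replicate 1 and 52.3 TPM in replicate 2, a mean of 51.7 ± 0.778, so that the libraries were close.

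The FXYD genes covered a narrower range than the beta genes. Fxyd1 (ENSMUSG00000036570.14, chromosome 7, 31051678 to 31057199, minus strand) had 540.7 TPM in replicate 1 and 243 TPM in replicate 2, a mean of 392 ± 210.2. This was the widest spread of the 6 genes. Fxyd7 (ENSMUSG00000036578.7, chromosome 7, 31042513 to 31051467, minus strand) had 311 TPM in replicate 1 and 226 TPM in replicate 2, a mean of 269 ± 60.1. Fxyd6 (ENSMUSG00000066705.7, chromosome 9, 45370185 to 45396159, plus strand) had 117 TPM in replicate 1 and 113 TPM in replicate 2, a mean of 115 ± 3.03, and the libraries were close.

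By mean TPM the order was Atp1b1, Fxyd1, Fxyd7, Atp1b2, Fxyd6 and Atp1b3. The ranges of Fxyd1 and Fxyd7 overlapped in both deposited quantifications, so their order was within the spread of the libraries. The other 4 neighbouring pairs did not overlap in either quantification over all transcripts. The order of Atp1b2 and Fxyd6 did not hold over protein coding transcripts alone. Atp1b2 then had 138 TPM in replicate 1 and 70.2 TPM in replicate 2, against 117 and 113 TPM for Fxyd6. In the second quantification coding Atp1b2 lay below coding Fxyd6, at 79.5 against 86.2 TPM in replicate 1 and 57.3 against 95.9 TPM in replicate 2. Summed TPM of the beta genes was 1111 in replicate 1 and 1216.5 in replicate 2, and that of the FXYD genes was 969 in replicate 1 and 583 in replicate 2.

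**Figure D1:**
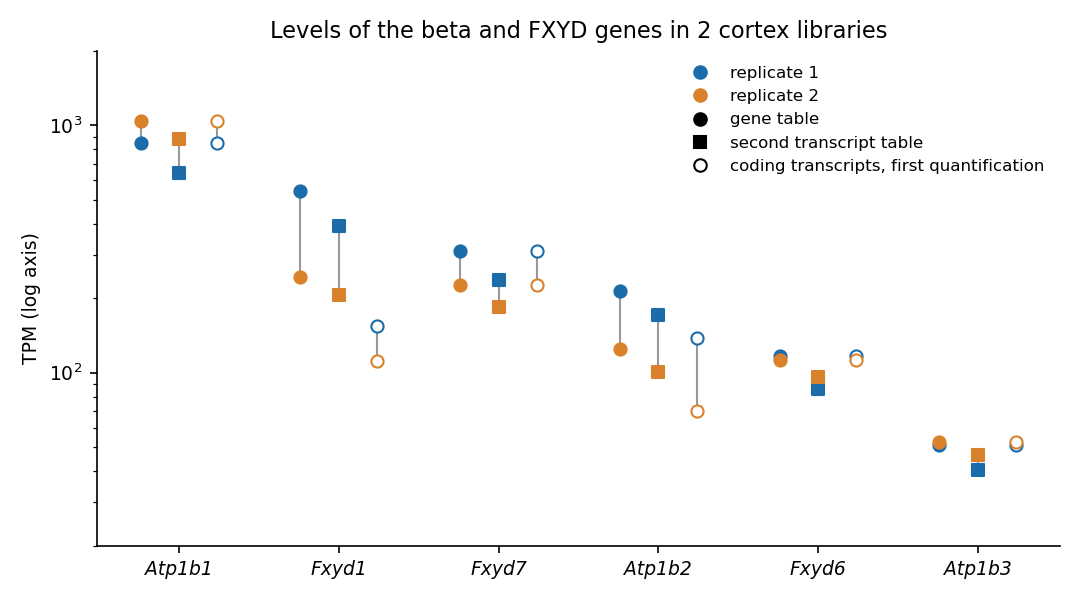
Level in TPM (log axis) of each member in replicate 1 and replicate 2, from the gene tables, from the second transcript tables and from the protein coding transcripts of the first quantification alone. Counted over coding transcripts, Fxyd1 had 155 TPM in replicate 1 and 111 TPM in replicate 2 and lay below Fxyd7; Atp1b1 was the highest gene in all 3 measures.

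By TPM of the first quantification, most of the Fxyd1 level lay on a single short transcript that carries no annotated protein. Fxyd1 had 17 annotated transcripts, 12 of them protein coding. Fxyd1-213, annotated as a retained intron and 255 bases long, had 383 TPM in replicate 1 and 130.3 TPM in replicate 2, which was 70.9% and 53.5% of the gene's TPM in those libraries. The second quantification gave it 62.8% of the gene's TPM in replicate 1 and 44.7% in replicate 2. Of its bases, 239 (93.7%) lay in exons of coding Fxyd1 transcripts and 16 (chromosome 7, 31052178 to 31052193) did not. The 66 bases of its first exon, chr7:31052128-31052193 on the minus strand of GRCm38, are shown because they hold the 16 bases, in capitals, that set it apart from the coding exons.
Fxyd1-213: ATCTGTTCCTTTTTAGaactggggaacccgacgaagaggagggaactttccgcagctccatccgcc

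Outside those 16 bases every base of Fxyd1-213 is shared with a coding transcript, so most of its reads had to be assigned by the quantification. In TPM a fragment counts for more the shorter its transcript. The deposited effective length of Fxyd1-213, the number of positions at which a fragment can start, was 101.1 in replicate 1 and 133 in replicate 2. For Fxyd1-212, the leading coding transcript of 568 bases, it was 405 in replicate 1 and 445 in replicate 2. By fragments, Fxyd1-213 held 42.1% of the gene in replicate 1 and 28.9% in replicate 2, and Fxyd1-212 held 31.5% in replicate 1 and 42.1% in replicate 2. In TPM, Fxyd1-212 had 71.9 in replicate 1 and 56.8 in replicate 2. The other transcripts with at least 5% of the TPM in any library or quantification were the coding Fxyd1-211, with 23.8 TPM in replicate 1 and 20.4 TPM in replicate 2, and the coding Fxyd1-207, with 22.0 TPM in replicate 1 and 15.5 TPM in replicate 2. All coding transcripts together held 28.6% of Fxyd1 TPM in replicate 1 and 45.8% in replicate 2, and in the second quantification 36.6% in replicate 1 and 54.8% in replicate 2.

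A large part of Atp1b2 also lay on transcripts with no annotated protein. The coding Atp1b2-201 (2842 bases) had 138 TPM in replicate 1 and 70.2 TPM in replicate 2, which was 64.6% and 56.3% of the gene. Atp1b2-202, a processed transcript of 3751 bases, had 45.7 TPM in replicate 1 and 18.3 TPM in replicate 2. Atp1b2-204, a processed transcript of 711 bases, had 30.1 TPM in replicate 1 and 36.1 TPM in replicate 2, so that it stood higher in replicate 2, whereas the second quantification gave it 33.8 TPM in replicate 1 and 23.1 TPM in replicate 2. Both share most of their exon bases with the coding form: 2837 of the 3751 bases of Atp1b2-202 and 651 of the 711 bases of Atp1b2-204 lie in exons of Atp1b2-201. The second quantification gave the coding form 46.3% of TPM in replicate 1 and 56.4% in replicate 2.

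**Figure D2:**
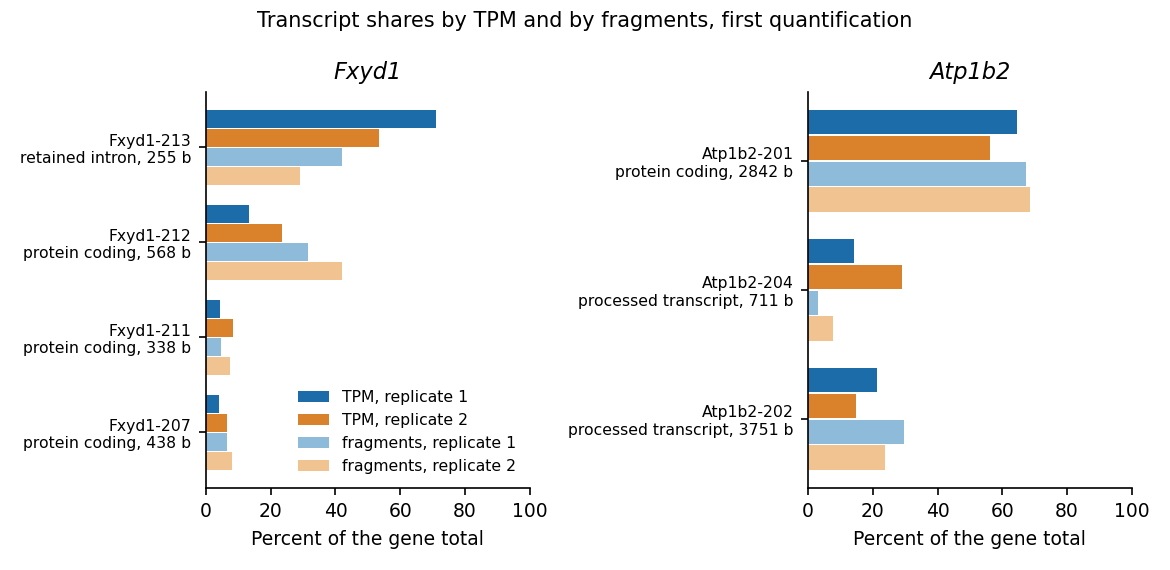
Percent of the gene's TPM and of its fragments held by each named transcript of Fxyd1 and Atp1b2 in replicate 1 and replicate 2, first quantification. Fxyd1-213 leads Fxyd1 by TPM in both libraries, at 70.9% in replicate 1 and 53.5% in replicate 2, but by fragments it leads in replicate 1 and Fxyd1-212 leads in replicate 2.

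The other members were read almost wholly from coding transcripts. Atp1b1-201 held 99.6% of Atp1b1 TPM in each library, and Atp1b3-201 held all of Atp1b3 TPM in the first quantification and 99.1% in the second. Fxyd6 was divided between coding transcripts that differ by 3 coding bases. Fxyd6-203 held 62.6% in replicate 1 and 60.2% in replicate 2, and Fxyd6-201, which has the extra bases, held 37.4% in replicate 1 and 39.7% in replicate 2. Fxyd7-201 held 68.9% in replicate 1 and 67.4% in replicate 2, and Fxyd7-202, whose coding sequence is shorter by 9 bases, held 31.1% in replicate 1 and 32.6% in replicate 2. The coding bases that set these pairs apart are shown in capitals, for Fxyd6-201 within chr9:45390024-45390660 on the plus strand and for Fxyd7-201 within chr7:31044588-31044740 on the minus strand, both spliced.
Fxyd6-201: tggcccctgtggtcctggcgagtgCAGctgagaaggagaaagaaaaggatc
Fxyd7-201: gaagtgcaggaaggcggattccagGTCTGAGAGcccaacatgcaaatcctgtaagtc
In the first quantification the Fxyd6 and Fxyd7 shares moved by little between the libraries. The SD was 1.66 percentage points for Fxyd6-203 and 1.04 for Fxyd7-201, against 12.3 for Fxyd1-213 and 5.87 for Atp1b2-201. Between quantifications they moved more. The second gave Fxyd7-201 77.3% in replicate 1 and 74.9% in replicate 2, and Fxyd6-203 64.4% in replicate 1 and 64.7% in replicate 2.

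The neuronal beta subunit outweighed the glial one in both libraries. As a share of the summed TPM of the 3 beta genes, Atp1b1 held 76.1% in replicate 1 and 85.5% in replicate 2 (80.8% ± 6.62). Atp1b2 held 19.3% in replicate 1 and 10.3% in replicate 2 (14.8% ± 6.40). Atp1b3 held 4.61% in replicate 1 and 4.30% in replicate 2 (4.45% ± 0.219). The ratio of Atp1b1 to Atp1b2, taken within a library and so free of scaling between libraries, was 3.94 in replicate 1 and 8.34 in replicate 2, or 2.52 ± 0.764 on the log2 scale. Over coding transcripts alone the ratio was 6.10 in replicate 1 and 14.8 in replicate 2. In bulk tissue, fewer cells of a type and less RNA per cell cannot be told apart.

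Which FXYD gene led depended on the transcripts counted. Over all transcripts Fxyd1 held 55.8% of the summed TPM of the 3 FXYD genes in replicate 1 and 41.8% in replicate 2 (48.8% ± 9.91), Fxyd7 held 32.1% in replicate 1 and 38.9% in replicate 2 (35.5% ± 4.76), and Fxyd6 held 12.1% in replicate 1 and 19.4% in replicate 2 (15.7% ± 5.15). Over coding transcripts alone Fxyd7 led, with 53.4% in replicate 1 and 50.2% in replicate 2. Fxyd1 then held 26.5% in replicate 1 and 24.7% in replicate 2, and Fxyd6 held 20.1% in replicate 1 and 25.0% in replicate 2. Within a library, coding Fxyd7 TPM was 2.02 times coding Fxyd1 TPM in replicate 1 and 2.03 times in replicate 2, whereas over all transcripts the ratio was 0.576 in replicate 1 and 0.930 in replicate 2. Without any correction for length, Fxyd6, the FXYD member with the longest transcripts, held the largest part of the fragments, at 43.2% in replicate 1 and 50.6% in replicate 2.

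**Figure D3:**
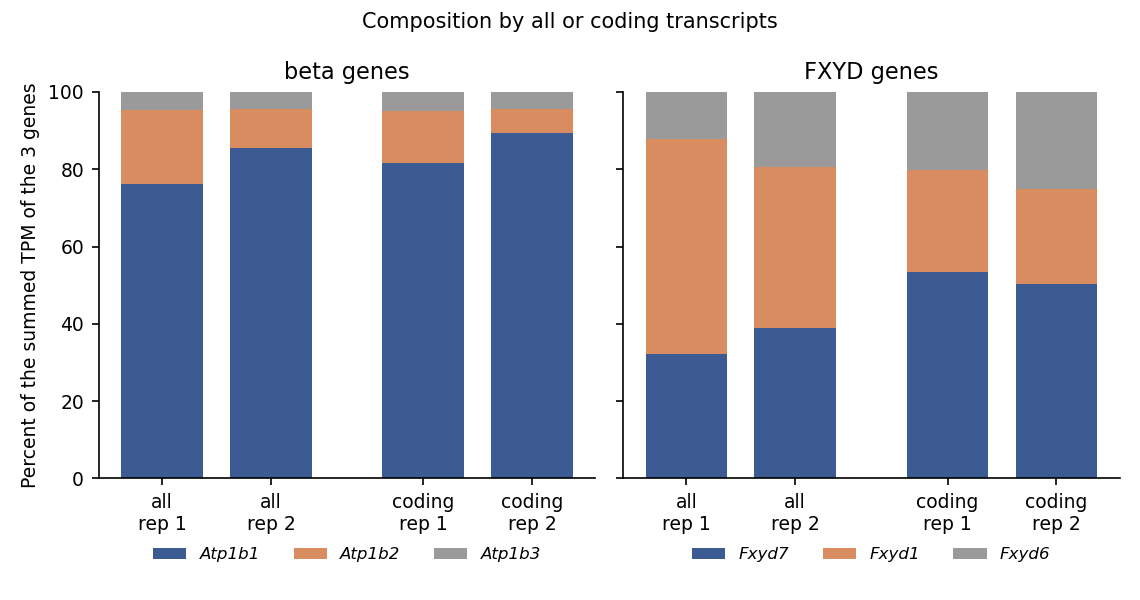
Percent of the summed TPM of the 3 beta genes (left) and of the 3 FXYD genes (right) held by each gene in replicate 1 and replicate 2, over all transcripts and over protein coding transcripts. Atp1b1 is the largest beta part throughout, from 76.1% to 89.5%, and the largest FXYD part is Fxyd1 over all transcripts and Fxyd7 over coding transcripts.

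Atp1b2 and Fxyd1 were the members at least 1.5-fold apart between the libraries, both higher in replicate 1. The gene tables held 51888568 fragments in replicate 1 and 26776336 in replicate 2, and fragments were compared as CPM (counts scaled to library size) with scaling by TMM, which balances libraries on the bulk of their genes. With 1 library a side there is no replicate check and no p-value, and each value compares these libraries, not conditions. Atp1b2 had 22152 fragments in replicate 1 and 5683 in replicate 2, a 2.20-fold ratio of CPM, or 1.13 on the log2 scale (95% Clopper-Pearson interval 1.09 to 1.18, counting error only). Fxyd1 had 3706 fragments in replicate 1 and 1225 in replicate 2, a 1.70-fold ratio, or 0.76 on the log2 scale (0.68 to 0.87). These were 2 of 6 members higher in replicate 1, read against 17.2% of the 14649 genes tested, and 0 of 6 lower, against 3.22%. In either direction 20.4% of tested genes were at least 1.5-fold apart. The median log2 ratio was 0.34 over the members and 0.03 over all tested genes.

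The other 4 members stayed within 1.5-fold. Fxyd7 had 6344 fragments in replicate 1 and 2522 in replicate 2, a log2 ratio of 0.50 (0.44 to 0.57). Fxyd6 had 7645 fragments in replicate 1 and 3832 in replicate 2, a log2 ratio of 0.17 (0.11 to 0.23). Atp1b3 had 3763 fragments in replicate 1 and 1994 in replicate 2, a log2 ratio of 0.09 (0.01 to 0.17). Atp1b1 was the member below 0 on the log2 scale, with 81814 fragments in replicate 1 and 51924 in replicate 2 and a ratio of -0.17 (-0.19 to -0.15). The intervals exclude 0 for all 6 members but cover counting error only. Scaling by total counts moved the median of all genes to -0.09 and turned the sign of Atp1b3 (-0.04), and 71.3% of all calls were then higher in replicate 1, against 84.2% with TMM.

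As the fragments were assigned, the Fxyd1 difference was not shared evenly by its transcripts in either quantification. Most bases of Fxyd1-213 lie in exons of coding transcripts, so the split rests on that assignment, which was not tested. The intervals in this paragraph cover counting error only and leave out error of assignment. The coding transcripts of Fxyd1 had 2110 fragments in replicate 1 and 859 in replicate 2, a log2 ratio of 0.46 (0.36 to 0.59). The ratio is under 1.5-fold, but its interval just reaches that limit. Its noncoding transcripts, nearly all Fxyd1-213, had 1596 fragments in replicate 1 and 366 in replicate 2, a log2 ratio of 1.27 (1.13 to 1.47). The second quantification gave 0.47 for the coding and 1.41 for the noncoding transcripts. For Atp1b2 both kinds stood apart. Its coding transcripts had 14904 fragments in replicate 1 and 3894 in replicate 2, a log2 ratio of 1.11 (1.06 to 1.16), and its noncoding transcripts had 7248 in replicate 1 and 1789 in replicate 2, a log2 ratio of 1.19 (1.12 to 1.27). The second quantification gave 0.71 for the coding and 1.59 for the noncoding transcripts of Atp1b2, so this split moved between quantifications.

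GC-rich genes were on the whole higher in replicate 1. Across 14639 tested genes, which share the 2 libraries and are not independent, Spearman's rho between GC content and the log2 ratio was 0.31. The transcripts of Fxyd7 were 58.8% G or C, those of Fxyd1 57.7%, Fxyd6 56.5%, Atp1b2 51.9%, Atp1b1 49.5% and Atp1b3 47.7%, beside a median of 50.8% over all these genes. With the trends on GC content and length removed, Atp1b2 stood at 1.08 and Fxyd1 at 0.77 on the log2 scale, and both remained over 1.5-fold, as did 18.9% of all genes in either direction. Fxyd7 stood at 0.38, Atp1b3 at 0.15, Fxyd6 at 0.06 and Atp1b1 at -0.19.

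**Figure D4:**
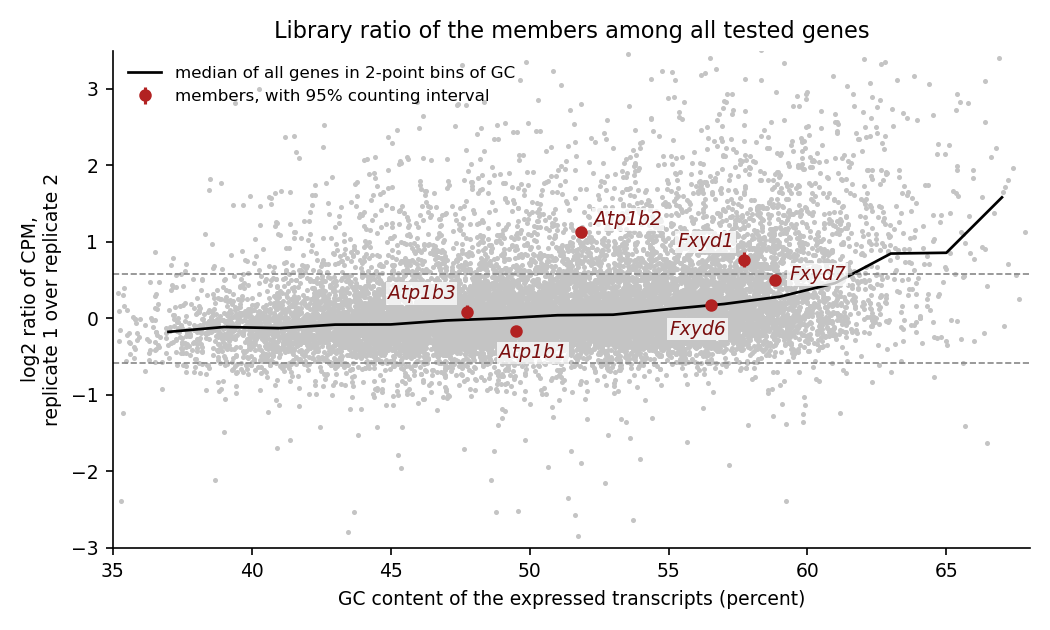
Log2 ratio of CPM (replicate 1 over replicate 2) against GC content of the expressed transcripts in percent for the tested genes within the axes (grey), with the median in bins of GC (line), the 1.5-fold limits (dashed) and the members with counting intervals (red, mostly smaller than the point). Atp1b2 at 1.13 and Fxyd1 at 0.76 lie above the upper limit and the other 4 members lie between the limits.

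Both quantifications placed the members alike. Of the 6 members, 0 differed by at least 2-fold in the same direction in both libraries, beside 2.83% of the 9895 genes compared. First over second, the log2 ratio of the members ran over 0.33 to 0.46 in replicate 1 and 0.17 to 0.30 in replicate 2, beside medians of 0.39 in replicate 1 and 0.28 in replicate 2 for all genes. The second quantification gave Atp1b1 639 TPM in replicate 1 and 879 TPM in replicate 2, and Fxyd1 393 TPM in replicate 1 and 207 TPM in replicate 2. Reads of Atp1b1 and Atp1b3 could have been divided with other genes. Of the 31-base words of Atp1b1-201, 20.2% also occurred in transcripts of Nme7, a kinase-like gene on the opposite strand whose end overlaps that of Atp1b1 by 617 bases (chromosome 1, 164437109 to 164437725). Nme7 had 23.1 TPM in replicate 1 and 42.6 TPM in replicate 2, far below Atp1b1, and the sources used here do not say whether counting used strand. Of the words of Atp1b3-201, 19.5% occurred in Gm1848, at 0.04 TPM in replicate 1 and 0.08 TPM in replicate 2, and Zcwpw1, at 2.87 TPM in replicate 1 and 3.40 TPM in replicate 2. These neighbours by sequence were chosen after values were seen. The words of the other members' leading transcripts occurred in no other gene.

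The remaining beta and FXYD genes were low. Atp1b4, a beta relative that has lost its pump role in placental mammals, had 0 fragments in both libraries, which allows up to 0.0578 CPM in replicate 1 and 0.112 CPM in replicate 2. Fxyd2, the gamma subunit of the kidney pump, had 14.5 TPM in replicate 1 and 14.2 TPM in replicate 2. Fxyd5, known as dysadherin, had 24.4 TPM in replicate 1 and 8.79 TPM in replicate 2, a log2 ratio of CPM of 1.44 (1.25 to 1.86). Fxyd3 had 1.80 TPM in replicate 1 and 1.00 TPM in replicate 2, with a log2 ratio of 1.16 (0.94 to 2.40). The second quantification gave Fxyd3 0.337 TPM in replicate 1 and 0.365 TPM in replicate 2, with a log2 ratio of 0.32, which is under 1.5-fold. Fxyd4, best known from the kidney collecting duct, had 6 fragments in replicate 1 and 1 in replicate 2. With these included, Fxyd1, Fxyd7 and Fxyd6 together still made up most FXYD RNA, since Fxyd5 held 1.93% ± 0.681 of it and Fxyd2 1.89% ± 0.642.

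The FXYD members sit among relatives on the chromosome. On chromosome 7 the order was Fxyd5, Fxyd7, Fxyd1 and Fxyd3, with 31 bases between the annotated ends of Fxyd5 and Fxyd7, 210 bases between Fxyd7 and Fxyd1 and 10972 bases between Fxyd1 and Fxyd3. The log2 ratios of these genes were 1.44, 0.50, 0.76 and 1.16 in that order in the first quantification, and Fxyd3 stood at 0.32 in the second. On chromosome 9, Fxyd6 lies 3509 bases from Fxyd2, and their log2 ratios were 0.17 and 0.06.

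Among the NKAIN proteins, which bind the beta 1 subunit, 2 of 4 genes were detected at 1 TPM or more in both libraries. Nkain4 was the highest at 108 ± 8.15 TPM and Nkain3 the lowest at 1.06 ± 0.226. Of the 3 tested, 1 was 1.5-fold higher in replicate 1 and 0 were lower, beside 17.2% and 3.22% of all tested genes. The related proton-potassium pumps had 0 of 3 genes detected, from Atp4a, the gastric pump, at 0.56 ± 0.170 TPM down to Atp4b, its beta subunit, at 0 fragments in both libraries.

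Other ion pumps, carriers and glial uptake genes were set beside the members. Their counts stand beside 17.2% of all tested genes at least 1.5-fold higher in replicate 1 and 3.22% lower. All 4 plasma membrane calcium pumps were detected and 0 of 4 were 1.5-fold apart, with Atp2b1 at 403 ± 0.269 TPM the highest and Atp2b3 at 10.9 ± 1.25 the lowest. Of 6 sodium-calcium exchangers, 2 were higher in replicate 1 and 0 lower, with Slc24a2 the highest at 56.3 ± 10.1 TPM and Slc8a3 the lowest at 4.51 ± 1.29. Of 5 cation-chloride cotransporters, 2 were higher in replicate 1 and 0 lower. The highest was Slc12a5, the neuronal potassium-chloride carrier, at 105 TPM in replicate 1 and 78.95 TPM in replicate 2 with a log2 ratio of 0.77 (0.72 to 0.82), and the lowest was Slc12a7 at 0.89 ± 0.156. Of 6 genes on a list drawn up for glial potassium and sodium uptake, 1 was higher and 1 lower in replicate 1. The highest was Slc1a2, the main glial glutamate carrier, at 176 ± 15.8 TPM, and the lowest was the potassium channel gene Kcnj16 at 7.39 ± 2.76, with a log2 ratio of -0.63 (-0.80 to -0.49).

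The cell type markers of a list did not all stand the same way between the libraries. Their counts, too, stand beside 17.2% of all tested genes at least 1.5-fold higher in replicate 1 and 3.22% lower. All 8 astrocyte markers were detected, with a summed level of 1706 TPM in replicate 1 and 2055 TPM in replicate 2, a sum led by Aldoc at 1129 TPM in replicate 1 and 1397 TPM in replicate 2. The markers Gfap, Slc4a4 and Aldh1l1 had more TPM in replicate 1 and the other 5 had less. Their log2 ratios of CPM ran over -0.30 to 0.70 with a median of -0.12, and 1 of 8, Slc4a4, was 1.5-fold higher in replicate 1. All 8 neuronal markers were detected, with a summed level of 5009 TPM in replicate 1 and 4915 TPM in replicate 2. Their log2 ratios ran over -0.20 to 0.93, and 2 of 8, Eno2 and Rbfox3, were 1.5-fold higher in replicate 1. The 8 oligodendrocyte markers summed to 3450 TPM in replicate 1 and 3731 TPM in replicate 2, and 0 of 8 were 1.5-fold apart. Of 5 oligodendrocyte precursor markers, 1 was 1.5-fold higher in replicate 1 and 0 lower. It was Sox10, at a log2 ratio of 2.43. Of 5 microglial markers, 0 were 1.5-fold apart. Of 4 endothelial markers, 1 was higher in replicate 1, Cdh5 at 0.79, and 0 were lower. Choroid plexus, where Fxyd1 is also known to be made, gave 3 of 5 markers detected, led by Ttr at 54.3 TPM in replicate 1 and 39.9 TPM in replicate 2, while Aqp1 had 3 fragments in replicate 1 and 1 in replicate 2. The marker genes named here were chosen after their values were seen. The part of cell makeup in the Atp1b2 and Fxyd1 ratios was not tested.

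**Figure D5:**
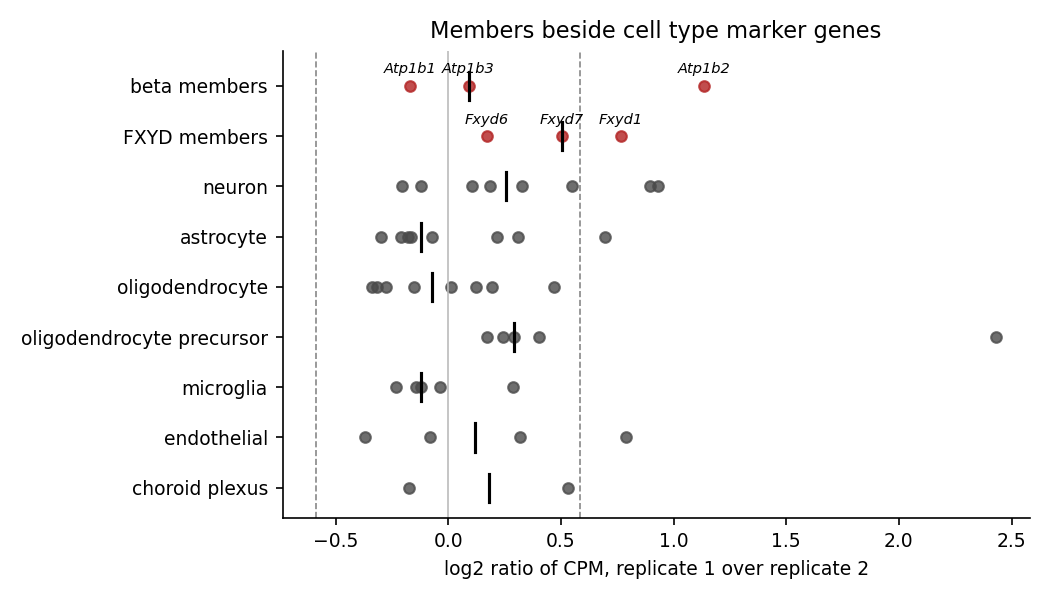
Log2 ratio of CPM (replicate 1 over replicate 2) of the beta and FXYD members (red, named) and of tested marker genes (grey). Bars are list medians and dashed lines the 1.5-fold limits. The marker lists drawn are neuron, astrocyte, oligodendrocyte, oligodendrocyte precursor, microglia, endothelial and choroid plexus. The ependymal, mural and meningeal fibroblast lists are not drawn, and they hold Foxj1 at 1.68 and Col1a1 at 1.46. Of the marker genes drawn, only Sox10, on the oligodendrocyte precursor list, lies to the right of Atp1b2 at 1.13, and it stands at 2.43. The highest astrocyte marker is at 0.70 and the highest neuronal marker at 0.93.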

How the data were processed

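Each library had 3 deposited tables on mm10 with GENCODE M21, per the labels and the notes deposited with the tables. The authors deposited expected counts and TPM per gene and, per transcript, also the percent of the gene's TPM, without further normalization, and a second transcript table of estimated counts and TPM. Layouts are those RSEM and kallisto write. The sources used here name no tool, version or strand setting.

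Expected counts were rounded where an interval needed them, and intervals were taken from the counts with nothing added. Libraries were scaled by TMM (edgeR 4.0.16) and compared as log2 CPM plus 0.5 for genes averaging a CPM of at least 1. Quantifications were compared as log2 TPM plus 0.1 at a mean TPM of at least 5. Depth was 51888568 fragments in replicate 1 and 26776336 in replicate 2 (76100930 and 46367810 in the second tables). Without molecular identifiers, intervals and floors of 3 counts cover counting error only. Rows that name no gene held 1.73e-05 and 3.35e-05 percent of fragments and were left out. GC content came from the M21 transcripts, and trends were removed by lowess (fraction 0.3, statsmodels 0.14.6).

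Members and lists were chosen with earlier results of these data known. Named genes were the members, their remaining beta and FXYD relatives, the highest and lowest by mean TPM of each list of pumps, carriers and NKAIN genes, and transcripts of at least 5% of a member's TPM. Some genes that this rule would name are not reported here. Alternatives covered quantification, length correction, transcripts summed, scaling, filters, pseudocounts, DESeq2 1.42.0 size factors and leaving out a library.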

Additional observations from a re-analysis of the deposited data

How the results depend on the processing

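The order of the beta shares held under every alternative run, while the FXYD order did not. Over coding transcripts of the first quantification, Fxyd1 held 25.6%, Fxyd6 22.5% and Fxyd7 51.8% of FXYD TPM, and Atp1b3 held 4.72% of beta TPM. With transcripts under 300 bases left out, an alternative added after seeing the data, Fxyd1 held 25.9%, Fxyd6 22.5% and Fxyd7 51.6%. Over coding transcripts of the second quantification, also added after seeing the data, the means were 29.8% for Fxyd1, 21.5% for Fxyd6, 48.7% for Fxyd7, 8.28% for Atp1b2 and 5.08% for Atp1b3, and the log2 ratio of Atp1b1 to Atp1b2 was 3.45. Without length correction Fxyd1 held 18.6%, Fxyd6 46.9% and Atp1b3 3.42%. Per annotated length Fxyd1 held 38.7% and Fxyd7 40.6%. The cause of these shifts was not tested.

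With 2 libraries, leaving out 1 only returns the values of the other, so it is no separate check. Shares ran over 76.1% to 85.5% for Atp1b1, 10.3% to 19.3% for Atp1b2 and 4.30% to 4.61% for Atp1b3. They ran over 41.8% to 55.8% for Fxyd1, 12.1% to 19.4% for Fxyd6 and 32.1% to 38.9% for Fxyd7. The log2 ratio of Atp1b1 to Atp1b2 ran over 1.98 to 3.06. Leaving out a library gives no value for ratios between the libraries. The count of members 1.5-fold apart was 1 in place of 2 over coding transcripts (added after seeing the data), where Fxyd1 stood at 0.46. The counting interval of that ratio just reached 1.5-fold. The count was 2 under the 7 other alternatives run. Among these, changing the filter on low counts leaves the member ratios as they are, so those runs could not change the count. The count over all genes ran over 2264 to 3538, but the number of genes tested changed with the filter. It was 2264 of 11403 tested when the CPM cutoff was raised to 5 and 3538 of 27515 without a filter. With the filter used above it was 2992 of 14649. The range of counts is therefore not a range of shares. No paired analysis was possible because there was only 1 group. Depth limits what can be said of Fxyd4 and Atp1b4, at 6 fragments or fewer per library.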
